A study of Mus musculus with 20 samples.

Results

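The response of the mouse soleus to 1 day without weight bearing was described from 10 of the 20 one-colour Agilent arrays of the series. They are the 5 soleus arrays of hind-limb suspension (HLS) and the 5 soleus arrays of freely ambulating control mice, chosen by their titles. Each array holds total RNA of 1 muscle of 1 animal. The animals were male ICR mice, an outbred stock, aged 6 months and housed singly. For HLS the tail was taped to an overhead line, so that the hind limbs bore no load for 24 h at a head-down tilt of 45°, and the muscle was excised under anaesthesia and kept in RNAlater. HLS and control animals are different mice. The other 10 arrays hold the gastrocnemius of the same mice, and arrays of both muscles that carry 1 number in the same arm come from 1 animal. They enter the estimate of the spread and 1 comparison. The comparison asks which transcripts of a postural muscle differ after 1 day of unloading. The best known atrophy and stretch genes (57 genes such as Fbxo32, Gadd45a and Ankrd1) were set aside.

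The soleus is active almost all the time during standing, and in rodents it is rich in slow, oxidative fibres. Load on a muscle fibre is read by its Z-disc, membrane and cytoskeleton, by calcium signals and by growth factor receptors, and the same signals set protein synthesis and breakdown. When load is removed, the soleus loses mass sooner than most other limb muscles, and its slow gene program weakens later. Whole muscle also holds vessels, nerve, fat, tendon, connective tissue and immune cells, and in such RNA fewer cells of a type and less RNA per cell cannot be told apart.

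All levels are log2 of the processed intensity after dividing by the array's 75th percentile, and a change is the HLS mean minus the control mean ± SE, with 5 arrays per group unless stated. Levels of different genes were not compared, since each probe has its own brightness. Adjusted p values come from limma with Benjamini-Hochberg adjustment over 25292 genes, and a gene is said to have risen or fallen only where adjusted p was below 0.05. Between 86.1% and 93% of probes exceeded background clearly on each soleus array, and precision is limited by how many arrays there are. Slides and groups overlap little: 4 controls were on slide 4, control 5 and HLS 1 to 3 on slide 5, and HLS 4 and 5 on slide 6, which was also scanned on another day than the rest. E1A spike-in probes stood at 1.45 to 1.57 on the controls, 1.58 to 1.77 on HLS 1 to 3 and 1.92 to 2.02 on HLS 4 and 5.

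Some HLS arrays stood apart. The mean of 14 slow fibre markers was 4.27 on HLS 1, against 5.61 to 6.09 on the other HLS arrays and 5.98 to 6.24 on the controls. In the gastrocnemius, which is rich in fast fibres, the controls read 3.51 to 4.35. The mean of 15 fast fibre markers was 8.08 on HLS 1, against 5.97 to 7.10 on the other HLS arrays, 5.94 to 7.13 on the soleus controls and 7.53 to 7.83 on the gastrocnemius controls. HLS 1 was therefore low in slow and high in fast fibre markers, while the other 9 soleus arrays carried the high slow fibre level of their label. Over all genes its median correlation with the other HLS arrays was 0.9753 and with the gastrocnemius arrays 0.9688, where the other 9 soleus arrays reached 0.9492 to 0.9611. HLS 5 had the same median correlation with its group (0.9753), and was the lowest soleus array for the tendon (1.42), endothelial (1.51) and smooth muscle (2.30) markers. HLS 2 carried high levels of hair keratin genes, given with the closing observations. Results are given with and without HLS 1.

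**Figure D1:**
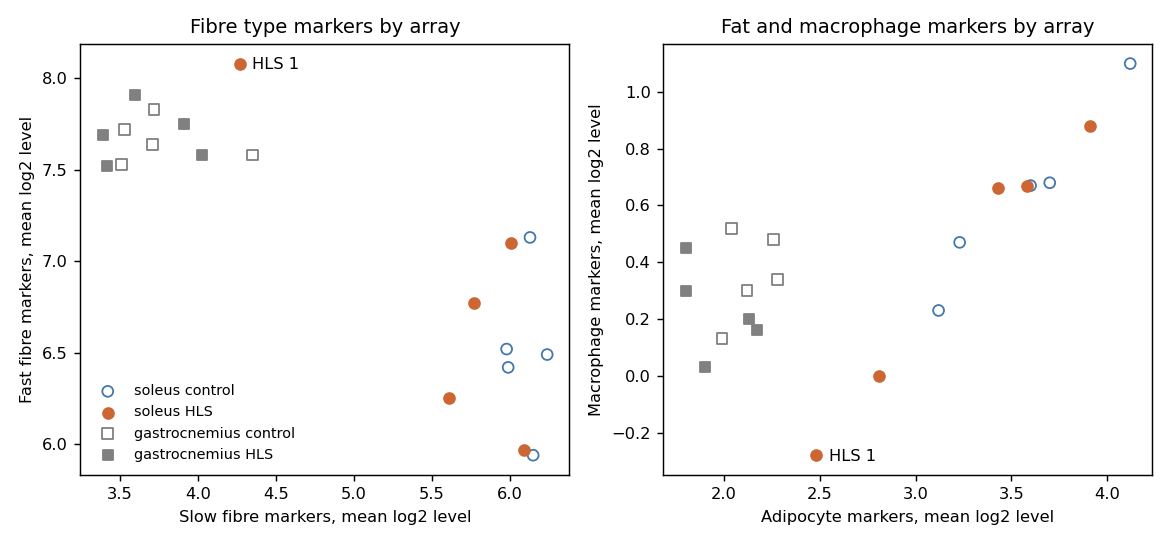
Mean log2 level of marker lists on each of the 20 arrays, relative to the array's 75th percentile: slow against fast fibre markers (left) and adipocyte against macrophage markers (right), with soleus as circles, gastrocnemius as squares, control open and HLS filled. HLS 1 lies at 4.27 and 8.08 on the left, near the gastrocnemius arrays, and at 2.48 and -0.28 on the right, below all other soleus arrays.

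After 24 h of HLS, 604 genes (2.39% of those tested) had risen and 896 genes (3.54%) had fallen, together 5.93%, of which 108 and 159 by at least 2-fold. In 1277 genes (5.05%) the values of the 5 HLS and the 5 control arrays did not overlap, and 991 genes (3.92%) both passed and did not overlap. Without HLS 1, 596 genes (2.36%) had risen and 792 (3.13%) had fallen, and 1187 calls were made with and without it. With the day of scanning blocked, the counts were 304 (1.20%) and 477 (1.89%). That block leaves the contrast to the controls against HLS 1 to 3, here and below, since HLS 4 and 5 were scanned on a day of their own. With slide as a block, which leaves the contrast to control 5 against HLS 1 to 3, 23 genes (0.0909%) passed, 6 upward and 17 downward. Within slide 5 the sign was the same for 1491 of 1499 calls, and for 1480 without HLS 1. The arrays of slide 5 are among those that gave the calls, so this agreement is in part fixed in advance and is a description. Scaled to the spike-in RNA in place of the 75th percentile, the median of all genes moved from 0.05 to -0.22, and 177 genes rose and 3678 fell, so that the share of calls that were rises went from 40.3% to 4.59%. Of 78 named genes that rose relative to the 75th percentile, 28 did not pass with spike-in scaling, among them Wnt4, Cntfr, Bckdha, Klf9, Cirbp, Zfp36l1, Rhou, Ccl19, Egf, Fgfr4, Chrdl2, Peg3 and Cdh15, and none of the 78 changed sign. All changes below are relative to the 75th percentile.

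A stricter set of 239 rising (0.945%) and 398 falling genes (1.57%) passed with all arrays, without HLS 1 and with scan day as a block, did not overlap between the groups, and had the same sign within slide 5. Among these 637 genes HLS 1 lay within the range of the other HLS arrays in 320, beyond them on the side away from the controls in 211 and on the side of the controls in 106. The 15 highest rises and 15 largest falls of that set, leaving out the well known genes and unnamed transcripts, are described first. Since they were chosen for their size and their calls, those calls are a description. All 30 kept a call with spike-in scaling and none changed sign under any alternative. The choice already required calls without HLS 1 and with scan day as a block, and the sign within slide 5. The signs in those settings and with slide as a block were thus largely fixed in advance for these genes. With slide as a block 3 of them passed, namely Dll1 (1.91, adjusted p = 0.032), Perm1 (-2.02, adjusted p = 0.041) and Myh10 (-1.97, adjusted p = 0.025).

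The rises are taken by role, enzymes first. Pfkfb3, whose product makes the main allosteric activator of glycolysis, read 1.90, 0.81, 2.14, 2.42 and 2.24 in controls 1 to 5 and 5.68, 3.53, 3.61, 3.90 and 3.22 in HLS 1 to 5. All HLS arrays lay above all controls, and HLS 1 lay far above the other 4. Pfkfb3 thus rose by 2.09 ± 0.43 (4.25-fold, adjusted p = 0.0042), and by 1.66 without HLS 1. Gpt2, the mitochondrial alanine transaminase, read 2.02, 1.57, 1.74, 1.37 and 2.11 in the controls and 4.77, 2.66, 3.43, 3.11 and 3.57 in HLS. Its HLS values started above the highest control, and it rose by 1.74 ± 0.28 (adjusted p = 0.00046), or 1.43 without HLS 1. Acot1, a cytosolic thioesterase that frees fatty acids from coenzyme A, read 1.51, 1.05, 1.19, 0.85 and 0.34 in the controls against 1.92, 2.77, 3.06, 1.69 and 3.54 in HLS. The HLS arrays spread widely but stayed above the controls, with a rise of 1.61 ± 0.32 (adjusted p = 0.0033).

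Cyp27a1, a mitochondrial sterol hydroxylase, rose by 1.70 ± 0.33 (adjusted p = 0.0025) from control values that themselves ranged from -3.18 to -1.01. Fdft1, squalene synthase, the first committed step of sterol synthesis, read 0.73, 0.02, 0.37, -0.21 and 0.69 in the controls and 1.77, 1.47, 1.65, 1.65 and 1.92 in HLS. The HLS arrays were tightly grouped above every control, and the rise was 1.38 ± 0.17 (adjusted p = 3.4e-05). It was the 1 rise among 29 measured sterol synthesis genes, of which 3 fell: Dhcr7 (-0.80), Mvd (-0.78) and the transcription factor gene Srebf2 (-0.49). Mvd also passed without HLS 1 and with scan day as a block, Dhcr7 with neither.

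Regulators of growth and stress signalling were also among the rises. Castor2, of the arginine sensor family that acts upstream of the growth kinase complex mTORC1, read 0.71, 0.02, 0.63, 0.06 and 0.94 in the controls and 2.52, 2.12, 2.13, 1.91 and 2.10 in HLS. The groups were separated by about the spread of the controls, and the rise was 1.68 ± 0.17 (adjusted p = 4e-06). Arrdc2, an arrestin-domain gene, read -0.67, -0.70, -0.65, -0.79 and -0.35 in the controls and 1.44, 0.28, 0.34, 0.75 and 1.71 in HLS. The controls were close together and the HLS arrays were not, with a rise of 1.53 ± 0.24 (adjusted p = 0.00033). Fkbp5, a co-chaperone of steroid receptors and a classical glucocorticoid target, read 0.06, -0.59, -0.56, 0.16 and -0.39 in the controls and 0.44, 0.92, 1.77, 2.17 and 2.30 in HLS. Here HLS 1 was the lowest of its group, and the rise of 1.79 ± 0.35 (adjusted p = 0.0027) was 2.06 without it.

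The Notch ligand gene Dll1 read -0.10, 0.10, -0.35, 0.25 and -0.54 in the controls and 1.01, 1.57, 1.55, 0.90 and 1.68 in HLS. It rose by 1.47 ± 0.17 (adjusted p = 2e-05), and it was the 1 call among 26 measured Notch pathway genes, whose median change was 0.08 beside 0.05 over all genes tested. Fzd4, a receptor of Wnt ligands and norrin, rose by 1.35 ± 0.20 (adjusted p = 0.00021). Trp53inp1, a stress gene with a part in autophagy, rose by 1.48 ± 0.17 (adjusted p = 1.4e-05), and Ypel3, a growth suppressor induced by p53, by 1.37 ± 0.21 (adjusted p = 3e-04). Lrba, a vesicle trafficking gene, rose by 1.68 ± 0.19 (adjusted p = 1.5e-05), and Tfcp2l1, a transcription factor gene of the grainyhead family, by 1.46 ± 0.24 (adjusted p = 0.00074). Tango2 rose by 1.33 ± 0.26 with 4 HLS arrays, since its spot on HLS 5 was left out. The mean over all its probes was 0.50 (adjusted p = 0.52), so that this call rests on its brightest probe. Among all 178 named genes, 25 calls ended with the mean of probes, this one included.

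**Figure D2:**
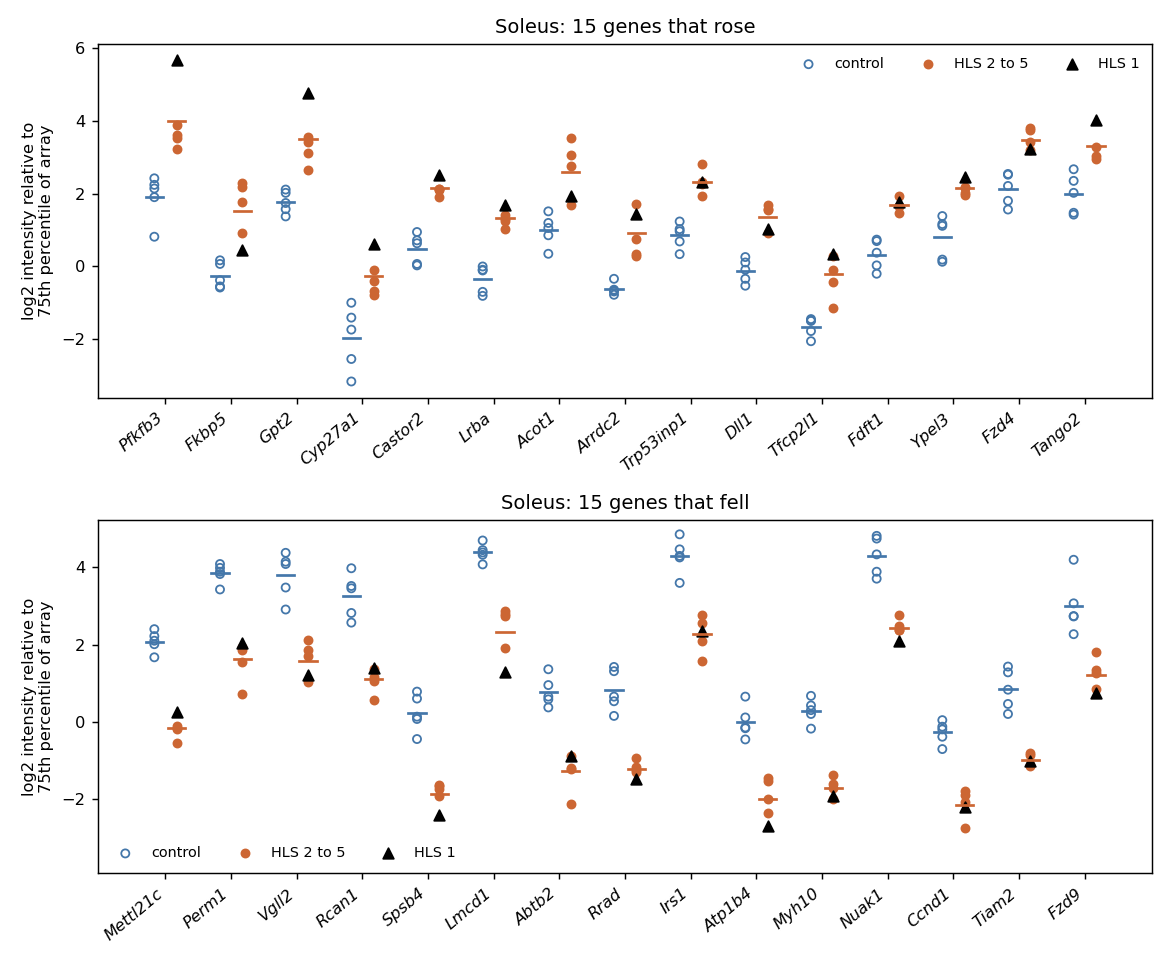
Level of the 15 named genes with the highest rise (top) and the 15 with the largest fall (bottom) on each soleus array, as log2 intensity relative to the array's 75th percentile; open blue circles are controls, orange circles HLS 2 to 5, black triangles HLS 1, and short lines the group means. HLS and control values do not overlap in any of the 30 genes, as the choice of genes required, and HLS 1 lies far from its group in Pfkfb3 (5.68 against 3.22 to 3.90).

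The falls start with the 3 largest. Mettl21c, a lysine methyltransferase of muscle, read 2.01, 2.22, 2.10, 2.40 and 1.67 in the controls and 0.24, -0.16, -0.12, -0.19 and -0.55 in HLS. Both groups were tight and far apart, and the fall was -2.23 ± 0.18 (4.70-fold, adjusted p = 2.4e-07). Perm1, a muscle regulator of mitochondrial genes, read 3.99, 4.09, 3.89, 3.43 and 3.83 in the controls and 2.05, 1.85, 1.54, 1.93 and 0.72 in HLS. HLS 5 was lowest, and the change was -2.23 ± 0.19 (adjusted p = 6.4e-07). Vgll2, a muscle cofactor of TEAD transcription factors, read 4.38, 3.48, 4.15, 2.91 and 4.09 in the controls and 1.20, 2.12, 1.85, 1.71 and 1.03 in HLS. The controls spread by over 1 unit and still lay above all HLS arrays (-2.22 ± 0.25, adjusted p = 1.1e-05).

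Genes around calcineurin, the calcium-dependent phosphatase that acts on NFAT factors and favours the slow program, were among the falls. Rcan1, an inhibitor of calcineurin and itself a target of NFAT, read 3.46, 3.52, 3.98, 2.82 and 2.57 in the controls and 1.39, 1.17, 1.05, 1.36 and 0.56 in HLS. Its fall was -2.17 ± 0.24 (adjusted p = 1.1e-05). Lmcd1, a LIM domain gene linked to calcineurin signalling in muscle, read 4.39, 4.08, 4.70, 4.45 and 4.33 in the controls and 1.28, 2.73, 2.80, 2.87 and 1.91 in HLS. HLS 1 was its lowest array, and the fall of -2.07 ± 0.24 (adjusted p = 1.7e-05) was -1.81 without it. Of the 26 measured genes of the calcineurin and NFAT list, 4 fell (15.4%) and none rose: Rcan1, the anchoring protein gene Akap5 (-1.71), the kinase gene Camkk1 (-1.29) and Rcan2 (-0.90). The 4 calls held with the day of scanning blocked, and the list's median was -0.05. On Akap5 the fall is to a level that was well above background on 4 of the 5 HLS arrays.

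Rrad, a small GTPase that restrains calcium channels, read 0.53, 1.42, 1.31, 0.65 and 0.15 in the controls and -1.48, -1.25, -0.93, -1.18 and -1.30 in HLS. The HLS arrays lay close together below every control, and the change was -2.04 ± 0.19 (adjusted p = 2.3e-06). Irs1, the adaptor that links the insulin and IGF1 receptors to PI3K, read 4.30, 4.86, 4.26, 4.47 and 3.60 in the controls and 2.36, 2.76, 2.10, 2.56 and 1.57 in HLS. It fell by 2.03 on the log2 scale, with an SE of 0.25 (adjusted p = 3.4e-05). Myh10, a non-muscle myosin heavy chain, read 0.42, -0.18, 0.67, 0.20 and 0.30 in the controls and -1.93, -1.37, -1.71, -1.61 and -2.01 in HLS. Of the 30 genes it had the lowest p, with a change of -2.01 ± 0.15 (adjusted p = 1.1e-07). Ccnd1, the D-type cyclin that starts the G1 phase, changed by -1.88 ± 0.20, and Nuak1, a kinase related to AMPK, by -1.88 ± 0.20. The ubiquitin ligase adaptor gene Spsb4 (-2.11), Abtb2 (-2.05), Atp1b4, a beta subunit relative of the sodium pump (-2.01), the Rac activator Tiam2 (-1.84) and the Wnt receptor gene Fzd9 (-1.80) complete the 15.

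The promoters of these 30 genes were read from RefSeq on mouse build GRCm38.p6, as 250 bases before to 50 after the start, and 13 rising and 12 falling genes had an entry. Of 15 short motifs searched on both strands, CAGCTG, an E-box bound by MyoD-family factors, was the one whose share stood farthest, in percentage points, above that of all promoters. It was found in 6 of the 13 rising genes (46.2%) and 2 of the 12 falling genes (16.7%), beside 18.3% of 27025 genes with a promoter. The sequence is its own reverse complement, so both strands give the same match. For Castor2 the match begins 4 bases before the start, and for Ypel3 and Acot1 it begins 12 and 44 bases after it. The other 3 promoters with a match upstream of the start are shown over 100 bases, 5′ to 3′ on the strand of the gene, with the motif in capitals. They lie at chr1:74713375-74713474 (plus strand) for Cyp27a1, chr17:15377012-15377111 (minus strand) for Dll1 and chr16:18344035-18344134 (minus strand) for Tango2, where the motif begins 113, 132 and 155 bases before the start.
Cyp27a1: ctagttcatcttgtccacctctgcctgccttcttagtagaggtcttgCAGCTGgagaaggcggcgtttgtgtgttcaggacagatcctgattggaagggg
Dll1: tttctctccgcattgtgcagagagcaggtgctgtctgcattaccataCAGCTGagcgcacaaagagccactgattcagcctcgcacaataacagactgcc
Tango2: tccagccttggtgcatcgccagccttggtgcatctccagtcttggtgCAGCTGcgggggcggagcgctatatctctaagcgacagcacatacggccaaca
Among the falling genes CACGTG, the E-box of MYC and clock factors, was found in 4 of 12 (33.3%), in Vgll2, Rcan1, Irs1 and Fzd9, beside 8.09% of all promoters. It was also found in 2 of the 13 rising genes (15.4%), Pfkfb3 and Fkbp5. TGACGTCA, the cAMP response element, was found in Rcan1 and Lmcd1 (16.7%), beside 2.03%. These are matches of letters in a set chosen for its change, and binding was not measured.

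The 30 gene lists below cover pathways beyond atrophy and stretch, and each is described by its counts, read against 2.39% rising and 3.54% falling over all genes tested. Annexins and membrane repair genes, which patch tears of the fibre membrane and shape caveolae, had the largest share of falls: 13 of 35 measured members (37.1%), with none rising and a median of -0.33. Anxa2, a calcium-dependent membrane binder, read 2.07, 1.84, 2.27, 2.43 and 2.13 in the controls and 0.85, 1.21, 1.34, 1.33 and 0.63 in HLS. The groups did not overlap (-1.08 ± 0.15, adjusted p = 1e-04). S100a11, a partner of annexins, read 0.98, 0.89, 1.23, 1.51 and 1.29 in the controls and -0.24, 0.44, 0.49, 0.39 and -0.52 in HLS. HLS 1 and 5 were the lowest, and the change was -1.07 ± 0.19 (adjusted p = 0.0012). Anxa5 (-0.95), Anxa3 (-0.71), the caveolar coat genes Cavin1 (-0.74), Cavin2 (-0.61) and Cavin3 (-0.68), Cav2 (-0.55) and the membrane-shaping ATPase genes Ehd1 (-0.59), Ehd2 (-0.47) and Ehd4 (-0.73) also fell. Without HLS 1, 10 fell and the median was -0.31, and 8 fell with the day of scanning blocked. The list's median in gastrocnemius was -0.24. Many of these genes are also made by fat, vessel and connective tissue cells. The adipocyte list changed by -0.28 in the median with none of its 13 members falling, the endothelial list by -0.09 with none of 14, and the smooth muscle list by -0.20 with 2 of 12. Among connective tissue markers, the fibroblast list changed by -0.15 with 1 of 14 falling, the matrix gene Mfap5 (-0.99 ± 0.18, adjusted p = 0.0012; 0.004 without HLS 1), and the tendon list by -0.40 with 1 of 11, Scx. Their part in the result was not tested.

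**Figure D3:**
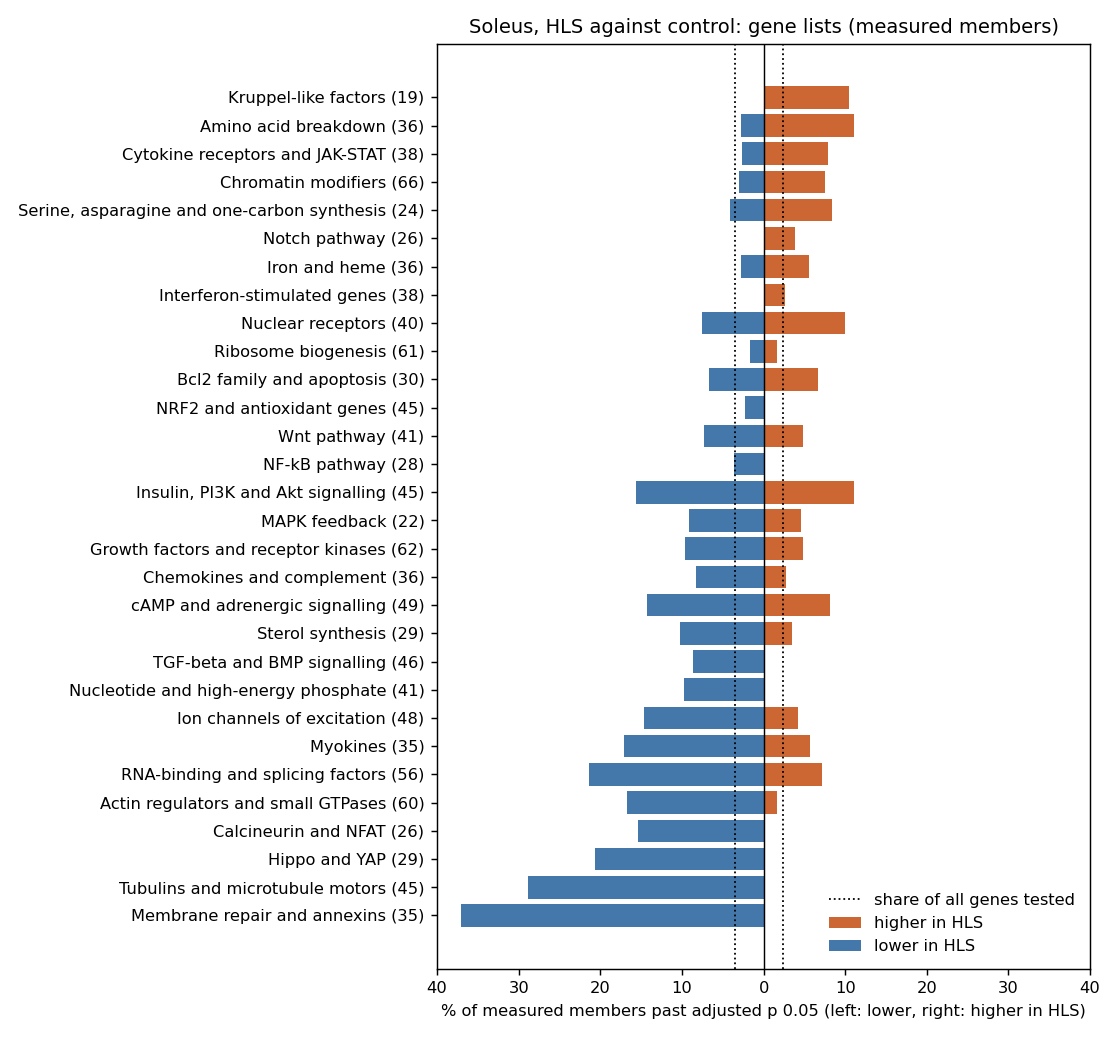
Share of the measured members of each of 30 gene lists that passed adjusted p 0.05 in the soleus, drawn to the right for genes higher in HLS and to the left for genes lower in HLS, with the number of measured members in brackets and dotted lines at the shares of all genes tested (2.39% and 3.54%). The membrane repair list reaches furthest to the left (37.1%), followed by tubulins and microtubule motors (28.9%).

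The cytoskeleton lists went the same way. Of 45 measured tubulin and microtubule genes, 13 fell (28.9%) and none rose, with a median of -0.14. Tuba1a read 4.93, 5.03, 4.45, 5.20 and 4.42 in the controls and 2.88, 3.31, 3.36, 3.42 and 2.51 in HLS, without overlap (-1.71 ± 0.21, adjusted p = 3.7e-05). Tuba8 (-1.04), Tuba1b (-0.88), Tubb5 (-0.86), Tubb6 (-0.90; adjusted p = 0.078 without HLS 1), Tubb2a (-0.70), the microtubule binder Mapt (-0.89), the plus-end gene Mapre1 (-0.56) and the kinesin gene Kif5b (-0.49) were others. Tubulin genes are close to each other in sequence, so the probe of 1 may bind transcripts of another and the number of separate falls is uncertain. Without HLS 1, 9 of them fell, and 6 with scan day as a block. Of 60 actin regulators and small GTPases of the cytoskeleton, 10 fell (16.7%) and Rhou rose (1.00, adjusted p = 0.042; 0.052 without HLS 1). Cdc42ep2, an effector of Cdc42, fell the most (-0.93 ± 0.18, adjusted p = 0.003), and the formin gene Daam1 (-0.65), Rhoa itself (-0.53) and the cofilin kinase gene Limk1 (-0.46) fell too. Rhoa did not pass without HLS 1 (adjusted p = 0.11), and neither Rhoa (adjusted p = 0.11) nor Limk1 (adjusted p = 0.13) passed with the day of scanning blocked. The list's median was -0.21, and 43 of the 60 members lay below 0, of which most did not pass. Without HLS 1, 7 members fell, and 4 with the day of scanning blocked.

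The Hippo and YAP list holds a pathway that answers to tension in the cytoskeleton. Of 29 measured members, with a median of -0.06 and 13 of them above 0, 6 fell (20.7%) and none rose. Beside Vgll2 these were Ccn1, a matrix protein gene and YAP target (-1.36 ± 0.24, adjusted p = 0.0011), Tead1 (-0.62), the receptor kinase gene Axl (-0.52), the phosphatase gene Ptpn14 (-0.50) and the kinase adaptor gene Mob1a (-0.49). Ccn1 read 1.75, 2.03, 1.41, 1.34 and 0.96 in the controls and 0.28, 0.14, 0.14, 0.27 and -0.11 in HLS. Without HLS 1, 3 of the 6 kept a call (Tead1, Axl and Mob1a did not). The TGF-beta and BMP list had 4 falls of 46 (8.70%), among them Smad7, an inhibitor of the pathway (-0.86 ± 0.15, adjusted p = 0.00097), and Id4 (-1.04). Id4 overlapped between the groups and did not pass with the day of scanning blocked (adjusted p = 0.096). Within slide 5 it stood at -0.35, and at -0.05 without HLS 1. In the MAPK feedback list, Dusp8, a phosphatase of stress kinases, read 1.38, 0.86, 1.04, 0.67 and 1.11 in the controls and -0.31, -0.85, -0.95, -0.78 and -0.71 in HLS. It fell by 1.73 on the log2 scale with an SE of 0.18 (adjusted p = 5.9e-06), and also passed with slide as a block (adjusted p = 0.041). Dusp16 fell as well (-0.63), and Errfi1, which restrains EGF receptors, rose (1.32 ± 0.30, adjusted p = 0.0096), but did not pass with the day of scanning blocked (adjusted p = 0.11).

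Insulin, PI3K and Akt signalling genes passed on both sides, 5 upward (11.1%) and 7 downward (15.6%) of 45, with a median of -0.02. Downward were Irs1, the catalytic subunit gene Pik3ca, the pseudokinase genes Trib1 (-0.95) and Trib2 (-0.80), the receptor adaptor gene Grb10 (-0.78), the cap-binding factor gene Eif4e (-0.69) and Rptor, a subunit of mTORC1 (-0.40). Pik3ca read 1.82, 1.52, 1.53, 1.85 and 1.48 in the controls and 0.86, 1.04, 0.59, 0.87 and 0.55 in HLS (-0.85 ± 0.11, adjusted p = 4.3e-05). Upward were Eef2k, the kinase that slows translation elongation, the AMPK subunit gene Prkab2 (1.02), the stress sensor gene Sesn1 (0.83), the phosphatase gene Inpp5k (0.67) and Pik3r1 (0.52). Eef2k read 0.36, 0.57, 0.28, 0.23 and 0.50 in the controls and 1.43, 0.94, 1.24, 1.30 and 1.41 in HLS (0.88 ± 0.11, adjusted p = 2.6e-05). All 12 of these passed without HLS 1. With spike-in scaling 3 rose and 13 fell.

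Cytokine signalling had 3 rises (7.89%) and 1 fall (2.63%) among 38 genes. Stat5b, a transcription factor downstream of growth hormone and cytokine receptors, read 3.90, 3.80, 3.58, 3.60 and 4.02 in the controls and 5.07, 4.92, 5.05, 4.75 and 4.97 in HLS. Both groups were tight, and the rise was 1.17 ± 0.14 (2.26-fold, adjusted p = 3e-05). The kinase gene Jak2 rose by 0.86 ± 0.17 (adjusted p = 0.0027), and the CNTF receptor gene Cntfr by 1.04 (adjusted p = 0.02; 0.057 without HLS 1), while Socs5, of a family of inhibitors, fell by 0.46. The NF-kB list had 1 fall of 28 (3.57%), Traf3 (-0.87), near the background share. The interferon-stimulated list had 1 rise of 38 (2.63%), Rsad2, which did not pass without HLS 1 (adjusted p = 0.1).

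Of 56 RNA-binding and splicing factor genes, 12 fell (21.4%) and 4 rose (7.14%), with a median of -0.08. Srsf3, a serine/arginine-rich splicing factor gene, read -1.56, -1.17, -1.77, -1.56 and -1.90 in the controls and -2.34, -2.30, -2.65, -2.59 and -2.47 in HLS (-0.88 ± 0.15, adjusted p = 0.00069). Srsf6 (-0.76), Hnrnpc (-0.70), Tra2a (-0.70), Tra2b (-0.51), Mbnl2 (-0.56) and the RNA-stabilising factor gene Elavl1 (-0.67) fell too. The rises were in Rbfox1, the muscle and neuron splicing regulator (0.94), the cold-inducible gene Cirbp (0.80), Zfp36l1 (0.53) and the splicing kinase gene Clk3 (0.38). Rbfox1 stood at 5.18 on HLS 1 against 3.85 to 4.17 on the other HLS arrays, and passed without it (0.71, adjusted p = 0.01). Cirbp read 2.72 on HLS 1, below all controls, and 3.52 to 4.31 on the other HLS arrays. Its rise passed without HLS 1 (1.06, adjusted p = 0.00048), but not with the day of scanning blocked (adjusted p = 0.22). Without HLS 1, 5 rose and 8 fell, and 2 rose and 5 fell with the day of scanning blocked. Among 66 chromatin modifier genes 5 rose (7.58%) and 2 fell (3.03%). Kdm7a, a histone demethylase gene, rose by 0.82 ± 0.12 (adjusted p = 0.00014), and Dot1l, a histone methyltransferase gene, changed by -0.89 ± 0.13 (adjusted p = 0.00016).

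Of 36 measured amino acid breakdown genes 4 rose (11.1%) and 1 fell (2.78%), and 30 members lay above 0, where 15241 of the 25292 genes did. The median was 0.16, but -0.12 with spike-in scaling and -0.09 within slide 5 without HLS 1. Beside Gpt2 the rises included Prodh, proline dehydrogenase (1.18 ± 0.19, adjusted p = 0.00042), and Bckdha, a subunit of the branched-chain keto acid dehydrogenase (0.72). All 5 calls held without HLS 1, and also with the day of scanning blocked. Prodh read 1.00, 0.58, 0.84, 0.59 and 1.57 in the controls and 1.93, 1.87, 1.92, 2.37 and 2.40 in HLS, and control 5 was the nearest control to the HLS arrays, 0.34 below the mean of HLS 1 to 3 on its slide. In the serine and one-carbon list, Psat1, a serine synthesis enzyme gene, read -1.29, -1.64, -1.38, -0.57 and -1.55 in the controls and -1.24, 0.63, 0.81, -0.09 and 0.48 in HLS. HLS 1 lay among the controls, so the groups overlapped. The rise was 1.41 ± 0.31 (adjusted p = 0.0078), 1.74 without HLS 1 (adjusted p = 2e-04), and did not pass with the day of scanning blocked (adjusted p = 0.057).

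Nuclear receptors and Kruppel-like factors included clock and metabolic regulators. Of 40 nuclear receptor genes 4 rose (10%) and 3 fell (7.50%). The clock-linked receptor gene Rora rose (0.80 ± 0.14, adjusted p = 0.0011). Nr4a1, an immediate early gene that responds to muscle activity, read 4.68, 3.69, 3.25, 3.98 and 4.33 in the controls and 3.61, 1.10, 1.85, 2.63 and 1.77 in HLS. HLS 1 lay within the controls and the other 4 below them, and the change was -1.79 ± 0.37 (adjusted p = 0.0043), or -2.15 without HLS 1. Ppara, the fatty acid sensor, fell (-1.12), with control 4 at -1.53 below all HLS arrays, and did not pass with the day of scanning blocked (adjusted p = 0.088). Esrrb fell (-0.90). Klf10, a TGF-beta-induced repressor gene, read 2.03, 2.13, 2.71, 2.01 and 2.56 in the controls and 3.35, 3.73, 3.77, 3.23 and 3.78 in HLS (1.28 ± 0.18, adjusted p = 0.00011). It and Klf9 (0.78, adjusted p = 0.044) were the 2 rises among 19 Kruppel-like factors (10.5%), and Klf9 did not pass without HLS 1 (adjusted p = 0.1).

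Genes of membrane excitation and cAMP signalling passed on both sides. Among 48 ion channel and pump genes 7 fell (14.6%) and 2 rose (4.17%). Kcna7, a voltage-gated potassium channel of skeletal muscle, read 3.38, 3.07, 3.31, 3.07 and 3.69 in the controls and 1.93, 2.17, 1.82, 2.58 and 1.80 in HLS (-1.24 ± 0.16, adjusted p = 4.8e-05). It also passed with slide as a block (adjusted p = 0.032). The calcium-activated potassium channel gene Kcnma1 (-1.03), Kcnc1 (-0.92), the intracellular chloride channel genes Clic4 (-0.96) and Clic5 (-0.99) and Atp1b4 were others, and the 7 falls held with the day of scanning blocked. Of 49 cAMP and adrenergic genes 4 rose (8.16%) and 7 fell (14.3%), led by the phosphodiesterase gene Pde4b (1.11 ± 0.17, adjusted p = 0.00028) and the adenylate cyclase gene Adcy7 (-1.11 ± 0.20, adjusted p = 0.0013). Without HLS 1, 2 rose and 5 fell, as many as with the day of scanning blocked.

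Secreted factors and their receptors passed on both sides, and members above and below 0 were about as many (31 and 31 of 62 growth factor and receptor kinase genes, 19 and 16 of 35 myokines). Vegfa, the main growth factor of capillaries, read 3.34, 2.44, 3.00, 2.35 and 2.96 in the controls and 1.94, 1.38, 1.46, 1.09 and 0.69 in HLS (-1.51 ± 0.21, adjusted p = 0.00011). Its receptor gene Flt1 (-0.61), Hbegf (-0.90), Fgf18 (-0.65), Fgf1 (-0.36) and the BDNF receptor gene Ntrk2 (-0.78; adjusted p = 0.13 without HLS 1) fell too, while Ngfr (1.02), Egf (0.66) and Fgfr4 (0.65) rose, which makes 6 falls (9.68%) and 3 rises (4.84%) of 62 growth factor and receptor kinase genes. Cxcl12, a chemokine of stromal and satellite cell niches, read 3.97, 4.32, 4.02, 3.67 and 3.76 in the controls and 2.90, 2.74, 3.06, 2.80 and 2.45 in HLS (-1.16 ± 0.14, adjusted p = 3.4e-05). Among 36 chemokine and complement genes 3 fell (8.33%), namely Cxcl12, Cxcl14 (-0.79) and Cx3cl1 (-0.71), and 1 rose (2.78%), Ccl19 (0.87). The groups overlapped in Cxcl14, Cx3cl1 and Ccl19. With the day of scanning blocked, Cxcl14 (adjusted p = 0.2) and Ccl19 (adjusted p = 0.1) did not pass. Within slide 5 Cxcl14 stood at -0.62, Cx3cl1 at -0.08 and Ccl19 at 0.18. Of 35 myokines 6 fell (17.1%), with the matrix protein gene Postn (-1.08) and Metrnl (-0.89) beside Vegfa and Cx3cl1, and 2 rose (5.71%). Without HLS 1, 4 myokines fell, and with the day of scanning blocked 4 fell and none rose, Postn not being among them (adjusted p = 0.095).

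Lists near the background included ribosome biogenesis (1 rise, Noc4l, and 1 fall, Nip7, of 61) and the NRF2 and antioxidant list (1 fall of 45, Gpx8). Of 41 nucleotide and high-energy phosphate genes 4 fell (9.76%), the creatine transporter gene Slc6a8 at -0.75 among them, and none rose. With the day of scanning blocked 2 fell. Of 30 Bcl2 family genes 2 rose and 2 fell, and Bmf, a pro-apoptotic member, had the largest change (1.31 ± 0.24, adjusted p = 0.0018). In the Wnt list of 41 genes, Fzd4 and Wnt4 (0.81) rose, and Fzd9, Fzd10 (-0.93) and Nkd1 (-0.62) fell. Fzd10 and Nkd1 did not pass without HLS 1, and Nkd1 stood at 0.05 within slide 5. In the iron list of 36, Slc25a28 and Neo1 rose and the transferrin receptor gene Tfrc fell (-1.19, adjusted p = 0.025; 0.072 without HLS 1).

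Markers of other cell types were checked in the same fit. With all arrays and no block, none of the endothelial (14), macrophage (15), lymphocyte (12), neutrophil (9), Schwann cell (13) and erythroid (6) markers passed. The lowest adjusted p in each list ran from 0.051 for the macrophage marker Lyve1 (-1.12) to 0.26 for the lymphocyte marker Cd2. Without HLS 1 the endothelial marker Kdr fell (-1.07, adjusted p = 0.018). With the day of scanning blocked the endothelial marker Cldn5 rose (1.45, adjusted p = 0.0051) and Lyve1 fell (-1.44, adjusted p = 0.043). Of 11 satellite cell markers 3 rose, Chrdl2 (0.64), Peg3 (0.63) and Cdh15 (0.47), and Vcam1 fell (-0.73), with a median of 0.18 that was -0.10 with spike-in scaling. Scx, the tendon transcription factor gene, fell by 0.78 on the log2 scale (adjusted p = 0.004), and the median of 11 tendon markers was -0.40. Pnpla2, the triglyceride lipase gene, which fibres express too, was the 1 rise among 13 adipocyte markers (0.88 ± 0.16, adjusted p = 0.0012), and the smooth muscle markers Tagln (-1.20) and Cspg4 (-0.60) fell. Mean levels of these lists overlapped between the groups: the tendon list read 2.06 to 2.45 in the controls and 1.42 to 2.40 in HLS, the smooth muscle list 2.53 to 3.26 and 2.30 to 2.92. Their part in the changes of single genes was not tested.

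The fibre type markers depended on HLS 1. All 14 slow fibre markers lay below 0 with all arrays, with a median of -0.53, and the median was -0.09 without HLS 1. Casq2, the slow calcium store protein gene, read 2.67, 2.91, 2.63, 3.08 and 2.58 in the controls and 0.23, 2.42, 1.33, 2.32 and 0.98 in HLS. It fell by 1.32 ± 0.29 (adjusted p = 0.0074) and still by 1.01 without HLS 1 (adjusted p = 0.013). Myoz2, a slow Z-disc gene, was the other call (-0.77, adjusted p = 0.043), and was not called without HLS 1 (adjusted p = 0.11). Sln, the sarcolipin gene, stood at 2.74 on HLS 1 and at 6.50 to 6.71 on the other HLS arrays, beside a control mean of 6.61. Tnnc1 likewise read 4.09 on HLS 1 against 6.59 to 7.16 on the other 4. The fast fibre median was 0.31 with HLS 1 and 0.02 without it, and none of the 15 markers passed. Actn3 and Pvalb, genes of fast fibres, read 7.91 and 7.03 on HLS 1, against 2.14 to 5.00 and 1.64 to 5.09 on the other HLS arrays. HLS 1 was also the lowest soleus array for the adipocyte (2.48) and macrophage (-0.28) lists.

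Without HLS 1, 313 calls ended and 201 genes were called that had not been. Among those that ended were the rises of the cell cycle inhibitor gene Cdkn1a (1.31, then 1.00 with adjusted p = 0.065) and the potassium channel gene Kcna5 (1.80, then 1.82 with adjusted p = 0.062). The rises of Fibin (1.26) and Adh1 (1.25, then 1.28 with adjusted p = 0.053) ended too, and Adh1 was -0.26 within slide 5. For Kcna5 and Adh1 the call ended though the change did not shrink. The falls of Tecrl (-1.40), Adamts8 (-1.33), Mcpt4 (-1.02) and Rab15 (-1.02) ended as well. Called only without it were the glycogen-targeting phosphatase subunit gene Ppp1r3g (1.71, adjusted p = 0.0028), Plekhh1 (1.23), Tac4 (1.49) and Zfp945 (1.14) upward. Downward were the capillary receptor gene Kdr (-1.07, adjusted p = 0.018), Rbp7 (-1.84), the junctional membrane gene Jph2 (-0.96), the muscle ubiquitin ligase substrate receptor gene Fbxo40 (-0.90) and the polyamine enzyme gene Amd1 (-0.93), which stood at 5.01 on HLS 1 and 1.70 to 2.94 on the other 4.

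**Figure D4:**
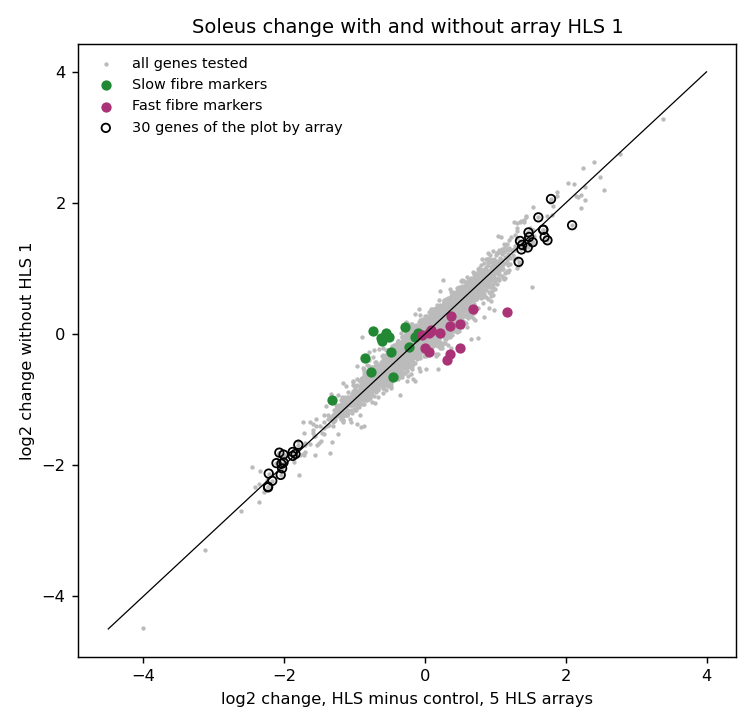
Change of each of 25292 genes (grey) as log2 HLS minus control with all 5 HLS arrays (horizontal) and without HLS 1 (vertical), with slow fibre markers in green, fast fibre markers in purple, the 30 genes described first as open circles, and the line of equal values. Slow fibre markers lie mostly above the line and fast fibre markers mostly below it (medians -0.53 and 0.31 with HLS 1, -0.09 and 0.02 without).

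The gastrocnemius of the same mice was used to ask where the soleus response differed. Its 5 controls and HLS 1 were scanned on day 1, on slides 1 and 2, and its HLS 2 to 5 on day 2, on slide 3. Its E1A probes stood at 2.47 to 2.66 on the controls and 1.69 to 2.02 on HLS, so that treatment and scanning are nearly confounded there. A block on the day of scanning leaves the gastrocnemius contrast to its controls against its own HLS 1. With the day of scanning blocked, 9 gastrocnemius genes rose and 7 fell, against 294 and 508 without the block. Of the 637 genes of the stricter set, 624 had the same sign there and 364 passed there, where 1.16% of all genes rose and 2.01% fell. The share of all genes with the same sign in both muscles was not counted, so the agreement in sign has no background beside it. With the day of scanning blocked, 608 had the same sign and 7 passed. Of the 30 genes described first, 25 passed in gastrocnemius (1 with the day of scanning blocked), and 29 had the smaller change there. Since they were chosen for a large change in soleus, a smaller change elsewhere is in part fixed by that choice. With all arrays the difference between the muscles passed for none of the 30. The nearest were Rrad (-2.04 and -0.55, adjusted p = 0.077 for the difference) and Mettl21c (-2.23 and -0.90, adjusted p = 0.11). Without HLS 1 the difference passed for Mettl21c (-1.43, adjusted p = 0.047).

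Over all genes the difference itself passed for 2 (0.00791%), and 1455 had an unadjusted p below 0.05. In limma no gene passed with the day of scanning blocked (1239 at an unadjusted p below 0.05) or with slide as a block (1034), and 6 passed with slide as a random block, so both calls below depend on leaving the batches out or treating them as random. Nlrc3, a regulator of innate immune signalling, read -0.18, -0.60, -0.14, 0.08 and -0.73 in soleus controls and -2.37, -1.56, -1.98, -1.71 and -1.88 in soleus HLS. In gastrocnemius it read -1.97 to -1.48 in the controls and -1.99 to -1.87 in HLS, about the level of the suspended soleus. Its change was -1.59 in soleus and -0.20 in gastrocnemius (difference -1.38 ± 0.22, adjusted p = 0.04), and the difference was -1.43 with the day of scanning blocked (adjusted p = 0.42). Dnmt3a, a DNA methyltransferase gene, differed the other way round. It read 1.91, 1.84, 1.88, 1.57 and 1.82 in soleus controls and 1.21, 1.80, 1.36, 1.57 and 1.19 in soleus HLS, a change of -0.38 that did not pass (adjusted p = 0.088). In gastrocnemius it went from 0.05 to 0.23 in the controls to 1.07 to 1.68 in HLS, a change of 1.15, and the difference was -1.53 ± 0.18 (adjusted p = 0.001), or -1.28 with the day of scanning blocked (adjusted p = 0.22). Without HLS 1 the difference passed for 13 genes, with Gprc5c (1.42, adjusted p = 0.047), the peroxisome gene Pex11a (1.19, adjusted p = 0.047) and Mettl21c (-1.43, adjusted p = 0.047) among those that also passed in soleus, and Nlrc3 (adjusted p = 0.023) and Dnmt3a (adjusted p = 0.0016) kept their calls.

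**Figure D5:**
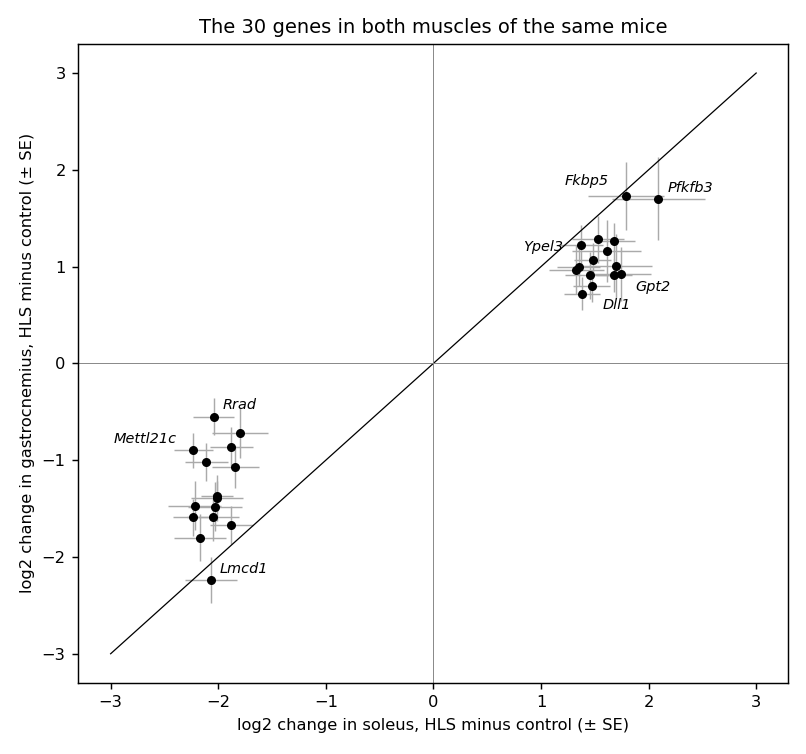
Change (log2 HLS minus control, ± SE) of the 30 genes described first in soleus (horizontal) and in gastrocnemius of the same mice (vertical), with the line of equal change. All 30 have the same sign in both muscles, 29 are smaller in gastrocnemius, and Rrad lies farthest towards no change (-2.04 and -0.55).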

How the data were processed

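The deposited scanner files give each spot's intensity in 1 colour, linear and already background-corrected by the authors' software, which the file headers name as Agilent Feature Extraction (version 9.1.3.1), and not yet scaled between arrays. Here, control spots and spots marked as outliers were left out (at most 43 per soleus array), values were divided by the 75th percentile of their array and logged (base 2), and repeat spots of a probe were averaged. Probes well above background on at least 4 of 5 arrays of 1 group were kept (37373 of 41174), and each gene took its brightest probe, which gave 25292 genes, 86 of them with a value missing on a soleus array. Probes were named through RefSeq accessions (22951), symbols (6659) or older symbols (3109), or kept the file's name (8455). The series table, deposited in intensity units, equals the scanner values within 0.497% and served as an alternative.

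With limma 3.58.1 (R 4.3.3), 1 model of the 4 group means was fitted to the 20 arrays (two-sided; threshold 0.05). Control and HLS animals of 1 number are different mice, so no pairing was used between them (correlations of their deviations -0.305 to 0.167). The soleus and gastrocnemius of 1 animal were treated as independent, and their deviations correlated at -0.344 to 0.17. With the animal as a random block, the muscle difference passed for 2 genes. The p-values measure the spread among arrays within the groups of both muscles. It holds the animals' own spread together with slide and scan day where these vary within a group.

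The members and gene lists were chosen with earlier results of these data known. Named genes are the 15 highest and 15 lowest robust changes and up to 3 passing members in each direction of a list (or the 2 with the lowest p). Also named were the 5 highest and 5 lowest calls that ended without HLS 1 and as many made only without it. The last were the 5 genes that varied most among HLS animals. Other list members and interaction genes were named after their values were seen. A few list members are counted but not reported here by name.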

Additional observations from a re-analysis of the deposited data

Results flagged for a closer look

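Among 178 named genes, 355 groups of 5 arrays were checked for an array far from its group, and 20 such values were found. That share is near the 1 in 20 groups that chance alone gives. The genes include some named because they varied most among the HLS arrays (the 5 hair genes below). Others were named because their call changed when HLS 1 was left out (Rab15, Zfp945 and Fbxo40 below). The place of both here was set by that choice, and the tally is not a test. Array HLS 1 held 8 of the values. On it Pfkfb3 stood at 5.68, with the other HLS arrays at 3.22 to 3.90, Rora at 1.86 (others up to 1.33) and Rbfox1 at 5.18 (others up to 4.17). The fast calcium pump gene Atp2a1 stood at 7.90 (others up to 6.61), Wnt4 at 0.05 (others up to -0.79) and Fbxo40 at 0.86 (others up to -0.58). Low on HLS 1 were Rab15 at 2.22 (others from 3.44) and Zfp945 at -0.13 (others from 1.07). Array HLS 2 held 5, all of them hair genes: Krt71 at 4.50 (others up to -2.11), Krtap22-2 at 2.68 (up to -3.11), Krt25 at 3.42 (up to -2.72), Tchh at 5.32 (up to -0.17) and Krt33a at 3.99 (up to -1.17).

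On HLS 5, Abtb2 stood at -2.13 (others from -1.23) and Cxcl14 at 1.13 (others from 2.03), and on HLS 4 Socs5 stood at 0.36 (others up to -0.06). Among controls, Gpx8 (2.39, others up to 1.64) and Dpep1 (1.15, others up to 0.49, in a gene that rose by 0.68 with adjusted p = 0.026) stood out on control 4. Fgfr4 (0.11, others from 0.46) and Cdh15 (0.72, others from 1.02) stood low on control 2.

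For 2 genes the HLS effect differed between the muscles by the test of the difference in limma, though for neither with the day of scanning as a block: Dnmt3a (-1.53, from -0.38 in soleus and 1.15 in gastrocnemius) and Nlrc3 (-1.38, from -1.59 and -0.20).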

How the results depend on the processing

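Against 604 rises and 896 falls, counts moved by over 1.5 times in these settings. Rises numbered 381 with median scaling, 177 with spike-in scaling, 271 from the 10 soleus arrays alone, 304 with scan day as a block, 88 within scan day 2 and 6 with slide as a block. Falls numbered 3678 with spike-in scaling, 434 from the soleus arrays alone, 477 with scan day as a block, 196 within scan day 2 and 17 with slide as a block. Scan day as a block without HLS 1, an alternative chosen after seeing the data, gave 159 and 230. Leaving out 1 array gave 421 to 662 rises and 602 to 951 falls, the fewest rises without control 4 and the fewest falls without HLS 5. Normexp background, quantile normalization, other filters on dim probes, the mean of probes, the series table and slide as a random block kept both counts within 1.5 times. With the replicate number as a block, 629 rose and 867 fell. The muscle difference passed for 4 genes with normexp background, 6 with quantile normalization, 1 without the filter on dim probes, and 1 to 13 when 1 array was left out (1 without control 1, control 3, HLS 3, HLS 4 or HLS 5, 5 without control 2, 4 without control 5 and 13 without HLS 1). Batch terms for it, chosen after seeing the data, gave 0 genes with scan day as a block, 0 with slide as a block and 6 with slide as a random block. Of the 30 genes described first, 29 were called with the mean of probes, 25 within scan day 2 (not Ypel3, Tango2, Fkbp5, Tfcp2l1 and Cyp27a1), 25 with scan day as a block without HLS 1 and 3 with slide as a block. Among named genes with a call, reversed values were Nkd1 (0.05) and Adh1 (-0.26), each with slide as a block and within slide 5, and Nip7 (0.00 with the mean of probes). Without a call, Dhh went from -1.17 to 0.34, Mag from -0.48 to 0.12 and the Schwann cell median from -0.32 to 0.47 with slide as a block. The cause was not tested. Slide, scan day and group overlap too little here to give the slide its own estimate from more than 4 arrays.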

Other observations

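Hair follicle genes were high on 1 array. After their values had been seen, all 52 measured hair keratin, keratin-associated protein and trichohyalin genes were listed, and HLS 2 was the highest of the 10 soleus arrays in 45 of them. There its median lay 2.94 above the mean of the other HLS arrays. Krt27, a keratin of the inner root sheath, read 3.97 on HLS 2 and 0.38 to 0.97 on the other HLS arrays, with 0.30 to 0.85 on the controls. Of the 52 genes, Krtap24-1 passed (0.48, adjusted p = 0.028) and none fell. The part of skin or hair RNA on HLS 2 in other results was not tested.

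Mpdz, a scaffold gene, stood at -2.55 on HLS 1 and at 1.61 to 1.70 on the other HLS arrays, beside a control mean of 1.72 ± 0.14 (SD, n = 5). Lars2 and Pigt varied widely even among controls (SD 2.67 and 2.47, n = 5) and stood at 9.35 and 9.22 on HLS 1, so that neither had a call (adjusted p = 0.78 and 0.8).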
